A study of Bos taurus with 6 samples.

Results

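The genes examined were the RB pocket proteins RB1, RBL1 and RBL2, the E2F transcription factors E2F1, E2F2, E2F3, E2F4, E2F7 and E2F8, and MYBL2, 10 genes in all, each found on 1 row by its symbol among the 32183 genes listed for every culture. Expression was measured by RNA-seq in rumen epithelial primary cells (REPC), which were grown from the rumen of a single Holstein bull calf that was 2 weeks old and had been fed milk replacer only. A group of 3 cultures was exposed to butyrate, a short-chain fatty acid of rumen fermentation and an inhibitor of histone deacetylases, at 5 mM for 24 h, and 3 untreated cultures from the same cells served as controls. Because all 6 cultures came from 1 calf, the p-values below measure only the spread between these cultures, which may be technical, and say nothing of how calves differ. The comparison asked how expression in these cells changed after butyrate.

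The pocket proteins bind E2F transcription factors and hold the genes of the cell cycle silent until cyclin-dependent kinases phosphorylate them. E2F1, E2F2 and E2F3 are known as activators of genes for DNA replication, E2F4 as the partner that carries the pocket proteins to promoters in resting cells, and E2F7 and E2F8 as atypical repressors that bind DNA without a DP partner and without a pocket protein. MYBL2, also called B-MYB, is itself a known E2F target gene and joins the MuvB core complex to switch on genes of the G2 and M phases, while in resting cells the same core joins RBL1 or RBL2 and E2F4 in the DREAM repressor complex.

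Levels are given as FPKM, fragment counts scaled to transcript length and to the library's mapped fragments, and are comparable between genes per length. Control cultures had FPKM sums from 678035 to 681912 and from 16051 to 16193 genes above 0. Butyrate cultures had sums from 619401 to 629037 and from 17306 to 17510 genes above 0. The files hold no counts and the depth per culture is therefore not known from them. All 10 epithelial markers had a mean of at least 1 FPKM, but 6 of 10 fibroblast markers (VIM at 2464 FPKM in control) and 3 of 5 smooth muscle markers (ACTA2 at 2752 FPKM in control) did too, as did 1 of 6 immune markers (CD14) and 2 of 5 endothelial markers (PECAM1 and VWF). Of the defining markers, PTPRC and MS4A1 of leukocytes and CDH5 of endothelium were listed at 0 throughout. The summed epithelial markers ran from 2592 to 2693 FPKM in control and from 5202 to 5298 FPKM after butyrate, those of fibroblasts from 4356 to 4512 FPKM and from 6374 to 6715 FPKM, and those of smooth muscle from 6468 to 6796 FPKM and from 2849 to 3456 FPKM. Of the 5 smooth muscle markers 4 fell, whereas DES rose from a mean of 0.37 to 1.60 FPKM (log2 fold change 2.07). The rise of the epithelial sum was carried by keratins, mainly KRT8, KRT19 and KRT14. Of its 10 genes 6 rose, and these include EPCAM (log2 fold change 2.44) and TP63 (0.38), both at low levels. KRT5 fell (-0.17), and CDH1, DSP and ITGA6 did not pass the test used below. Immune markers summed to between 5.12 and 7.15 FPKM in control and between 7.23 and 9.48 FPKM after butyrate, and endothelial markers to between 1.97 and 2.16 FPKM and between 6.48 and 8.43 FPKM, with rises in CD68 (0.92), PECAM1 (1.28) and VWF (2.65). The part of these shifts in the changes described here was not tested, and in bulk RNA fewer cells of a type, such as dividing cells, and less RNA per cell cannot be told apart.

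After butyrate, transcripts of MYBL2, of both atypical E2Fs and of E2F1 fell most, those of E2F4, E2F3 and RBL1 fell by less than 2-fold, and neither RB1 nor RBL2 passed the test. Of the 10 genes, 9 had a mean of at least 0.1 FPKM and were tested, and 7 of these fell at an adjusted p under 0.05 (limma on log2(FPKM + 0.1), Benjamini-Hochberg over all 15813 genes tested). The same call was made lower for 25.9% of all tested genes and higher for 32.5%. No member rose by this call, and 0 members were higher at an unadjusted p under 0.05. The study states stricter thresholds, a Bonferroni-adjusted p under 0.05 with an absolute log2 fold change above 2. By these, 2 members (E2F8 and MYBL2) fell, against 1.51% of all tested genes called lower and 2.46% called higher. The thresholds were applied here to the limma fit, whereas the study tested with Cufflinks, so the calls are not the study's own. The median log2 fold change was -0.87 over the 9 tested members and 0.10 over all tested genes. In 8 members every butyrate culture was below every control culture, in RBL2 every butyrate culture was above, and in RB1 the groups overlapped. The 8 include E2F2, which was not tested. Over all tested genes, a set without E2F2, 28.9% lay wholly below and 36.1% wholly above. Fold changes below are on the log2(FPKM + 0.1) scale, which understates the change of genes near 0. With a pseudocount of 1 FPKM in place of 0.1 FPKM, the log2 fold change was -1.81 for E2F1, -0.55 for E2F7 and -1.93 for E2F8, and all 3 were still called lower at an adjusted p under 0.05.

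**Figure D1:**
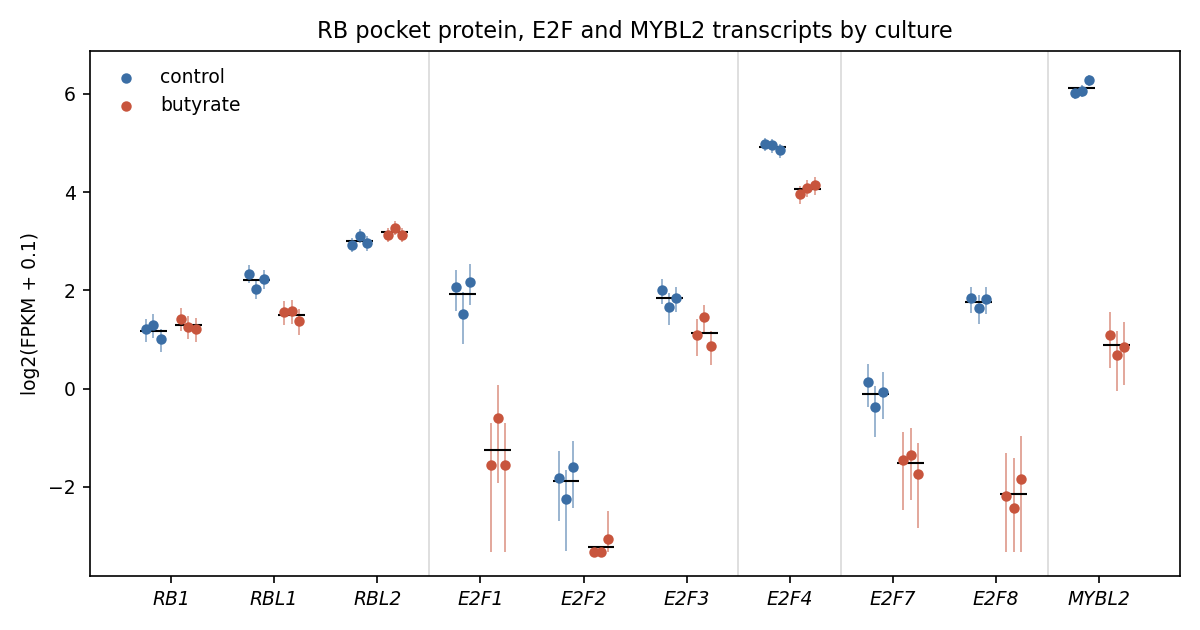
FPKM of each member on a log axis (FPKM + 0.1), with 1 point per culture (3 control, 3 butyrate) and a black line at the mean of the log values of each group. MYBL2 moved from between 64.4 and 77.9 FPKM to between 1.51 and 2.04 FPKM, whereas the points of RB1 overlap between the groups.

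In control cultures MYBL2 was the highest member, with a mean level of 69.7 FPKM, above 89.3% of all tested genes. It was followed by E2F4 at 30.3 FPKM and RBL2 at 7.92 FPKM, and the ranges of these neighbours over the 3 cultures did not overlap. RBL1, E2F1, E2F3 and E2F8 then followed at mean levels from 4.52 to 3.31 FPKM, and none of these neighbours differed beyond its range. RB1, E2F7 and E2F2 were the lowest, each apart from the next. After butyrate the order of levels began with E2F4 and RBL2. RBL1, RB1, E2F3 and MYBL2 formed a run of neighbours with overlapping ranges, from 2.75 down to 1.75 FPKM. E2F1 and E2F7 overlapped below them, and E2F8 and E2F2 came last.

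Among the pocket proteins, RBL1 fell and the other two did not pass the test. RB1, the retinoblastoma protein, lies on chromosome 12 from 18196449 to 18316589 in the UMD3.1 bovine genome and holds LPAR6 within its span. LPAR6 was at 15.7 FPKM in control and 14.1 FPKM after butyrate (log2 fold change -0.16, limma adjusted p = 0.223). The part of shared reads in the value of RB1 was not tested. The level of RB1 was 2.21, 2.34 and 1.90 FPKM in the control cultures and 2.57, 2.30 and 2.23 FPKM in the butyrate cultures. The groups overlapped, with means of 2.15 ± 0.228 and 2.37 ± 0.179 FPKM (SD, n = 3 each). Its log2 fold change was 0.13 with a 95% interval from -0.25 to 0.52 (limma, adjusted p = 0.519), and it was -0.18 after quantile normalization, so that no direction can be given.

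RBL1, or p107, known to rise in dividing cells, was at 4.957, 3.997 and 4.594 FPKM in control and at 2.857, 2.895 and 2.501 FPKM after butyrate. All butyrate cultures were below all controls, with means of 4.52 ± 0.485 and 2.75 ± 0.217 FPKM (SD, n = 3 each). RBL1 thus fell by 0.69 on the log2 scale (SE 0.15, limma adjusted p = 0.00347). Its locus, chromosome 13 from 66567169 to 66730589, spans 163421 bases and overlaps DSN1, SOGA1 and 3 genes without a name. DSN1, a kinetochore gene, was at 10.4 FPKM in control and 1.31 FPKM after butyrate, a log2 fold change of -2.90, and the part of shared reads in the value of RBL1 was not tested.

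RBL2, or p130, the pocket protein best known from resting cells, lies on chromosome 18 from 21879671 to 21928511 and overlaps AKTIP. It was at 7.53, 8.56 and 7.67 FPKM in control and at 8.67, 9.57 and 8.67 FPKM after butyrate. Each butyrate culture was above each control, by a small margin, with means of 7.92 ± 0.561 and 8.97 ± 0.519 FPKM (SD, n = 3 each). The log2 fold change of RBL2 was 0.18 with a 95% interval from -0.05 to 0.41 (limma, adjusted p = 0.161). When FPKM were rescaled to a common total per culture it was 0.30 and passed the test, with an adjusted p of 0.0296 against a range from 0.0296 to 0.352 over the alternatives that kept all cultures. AKTIP, whose row shares part of the span, rose from 16.95 to 21.02 FPKM (log2 fold change 0.31, adjusted p = 0.0161).

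The pocket protein transcripts summed to 14.6 ± 0.383 FPKM in control and 14.1 ± 0.682 FPKM after butyrate (SD, n = 3 each). Within that sum RBL2 held 54.3% in control and 63.7% after butyrate, RBL1 held 31.0% and 19.5%, and RB1 held 14.7% and 16.8%. The log2 ratio of RBL2 to RBL1 within a culture was 0.59, 1.08 and 0.73 in control and 1.57, 1.69 and 1.75 after butyrate, so the groups did not overlap. The difference was 0.87 (exact two-sided permutation test, p = 0.1, the smallest that 3 cultures against 3 allow). The log2 ratio of RBL2 to RB1 differed by 0.04 (exact permutation p = 0.8), and its sign changed when control culture 1 (-0.01) or butyrate culture 2 (-0.02) was left out.

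**Figure D2:**
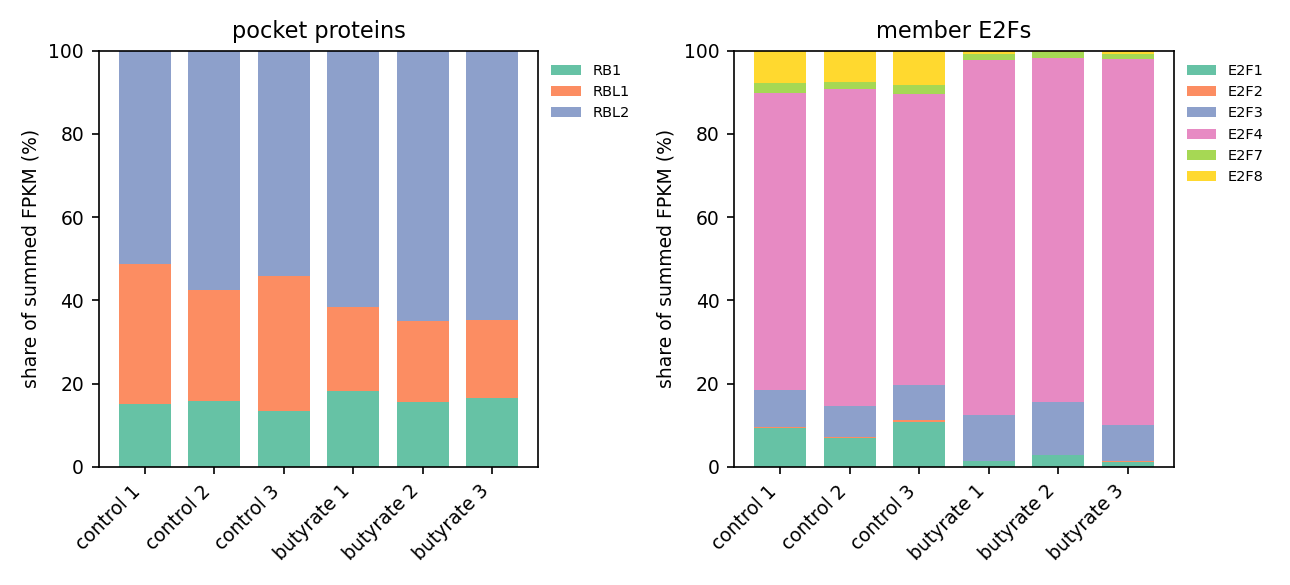
Percent of summed FPKM held by each of the 3 pocket proteins and each of the 6 member E2Fs, with 1 bar per culture, 3 control and 3 butyrate. As means of 3 cultures in control and then in butyrate, RBL2 made up 54.3% and 63.7% of the pocket protein sum. E2F4 made up 72.4% and 85.3% of the sum of the 6 member E2Fs, which leaves out E2F5 and E2F6.

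Of the activator E2Fs, E2F1 fell strongly, E2F3 fell little and E2F2 was too low to test. E2F1 lies on chromosome 13 from 63704817 to 63714008, and its level was 4.07, 2.79 and 4.42 FPKM in control and 0.238, 0.560 and 0.240 FPKM after butyrate. The groups were far apart, with means of 3.76 ± 0.860 and 0.346 ± 0.185 FPKM (SD, n = 3 each). E2F1 fell by 3.16 on the log2 scale (SE 0.33, limma adjusted p = 5.1e-05), and 0.917% of tested genes had a lower fold change. Its Bonferroni-adjusted p was 0.126, so E2F1 did not meet the stricter thresholds, except after quantile normalization (0.0494).

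E2F3 lies on chromosome 23 from 37258742 to 37343620. It was at 3.92, 3.06 and 3.48 FPKM in control and at 2.02, 2.65 and 1.72 FPKM after butyrate. The highest butyrate culture stayed below the lowest control, with means of 3.49 ± 0.432 and 2.13 ± 0.471 FPKM (SD, n = 3 each). The log2 fold change of E2F3 was -0.70 (SE 0.20, limma adjusted p = 0.0145). This call was lost without control culture 1 (-0.61), butyrate culture 1 (-0.67) or butyrate culture 3 (-0.56), with adjusted p from 0.0106 to 0.0593 over the 6 fits that each left out a culture, and it was also lost when genes of all levels were tested (0.0651).

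E2F2, on chromosome 2 from 129925982 to 129945066, was at 0.184, 0.110 and 0.231 FPKM in control. After butyrate it was listed at 0 in cultures 1 and 2 and at 0.0206 FPKM in culture 3. Its mean over the 6 cultures was under the 0.1 FPKM required, so it was not part of the main test. E2F2 met a filter of 0.1 FPKM in either group only through the control cultures. That filter favours a fall, and the p-value under it is no independent support for one. With it the log2 fold change of E2F2 was -1.34 (SE 0.40, limma adjusted p = 0.0203). With no filter the log2 fold change was the same, with an SE of 0.198 and a limma adjusted p of 0.00973. That fit adds genes at or near 0, which alters the estimate of spread, so its smaller p is no added support for a fall.

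The 2 tested activators were also set against each other within each culture. The log2 ratio of E2F1 to E2F3 within a culture was 0.05, -0.13 and 0.33 in control and -2.65, -2.06 and -2.42 after butyrate. The groups did not overlap and differed by -2.46 (exact two-sided permutation p = 0.1), or by -1.29 with a pseudocount of 1 FPKM, and the deposited lower bound of E2F1 was 0 in butyrate cultures 1 and 3. E2F1 and E2F3 were thus at about equal levels per length in control cells, and E2F3 was the higher of the pair in every butyrate culture.

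E2F4 was the most abundant E2F of both groups and fell in a narrow range. It lies on chromosome 18 from 34947844 to 34954518, and its level was 31.4, 30.8 and 28.7 FPKM in control and 15.4, 16.9 and 17.5 FPKM after butyrate. The spread within each group was small beside the gap, with means of 30.3 ± 1.44 and 16.6 ± 1.10 FPKM (SD, n = 3 each). E2F4 fell by 0.87 on the log2 scale (SE 0.08, limma adjusted p = 2.0e-05). Its change was short of the log2 fold change of 2 that the stricter thresholds need, and its Bonferroni-adjusted p of 0.0378 was not kept with any culture left out (0.388 to 1).

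E2F5 is the other E2F that partners mainly with the relatives of RB1 rather than RB1 itself, and E2F6 is a repressor that binds none of them. E2F5 rose from 5.36, 5.24 and 5.85 FPKM in control to 7.71, 7.95 and 8.33 FPKM after butyrate, opposite in direction to E2F4. Its log2 fold change was 0.54 (SE 0.10, limma adjusted p = 0.00209). The log2 ratio of E2F5 to E2F4 within a culture went from a mean of -2.45 ± 0.149 to -1.04 ± 0.0479 (SD, n = 3 each), a difference of 1.40 with no overlap (exact two-sided permutation p = 0.1).

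E2F6 fell from 4.59 ± 0.624 to 3.14 ± 0.230 FPKM (SD, n = 3 each), with a log2 fold change of -0.53 (limma, adjusted p = 0.0148). The call was lost without control culture 2 (-0.42) or butyrate culture 1 (-0.47). Of the DP proteins, with which the classical E2Fs bind DNA as pairs, TFDP1 was at 24.1 ± 4.79 FPKM in control and 22.5 ± 2.10 FPKM after butyrate and did not pass the test, with a 95% interval of its log2 fold change from -0.40 to 0.22. TFDP2 rose from 7.57 ± 1.23 to 10.4 ± 1.32 FPKM (log2 fold change 0.46, adjusted p = 0.0227), a call that was lost without control culture 2 (0.36), control culture 3 (0.43), butyrate culture 1 (0.49) or butyrate culture 3 (0.36), and also when genes of all levels were tested (adjusted p = 0.120) or without the trend (0.0508).

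Both atypical repressors fell, E2F8 by a log2 fold change of -3.92 and E2F7 by one of -1.41. E2F7 lies on chromosome 5 from 6428155 to 6467406, and its level was 0.992, 0.672 and 0.858 FPKM in control and 0.263, 0.291 and 0.201 FPKM after butyrate. The groups did not overlap, with means of 0.841 ± 0.160 and 0.252 ± 0.0463 FPKM (SD, n = 3 each). This was a fall of E2F7 by a log2 fold change of -1.41 (SE 0.30, limma adjusted p = 0.00344). The 95% bounds that the authors' quantification gives for each culture overlapped between the groups for this low gene, and its log2 fold change was -2.16 after quantile normalization.

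E2F8, on chromosome 29 from 25948441 to 25966928, was at 3.47, 3.03 and 3.43 FPKM in control. It was at 0.121, 0.0843 and 0.178 FPKM after butyrate, and the deposited lower bound was 0 in all 3 of these cultures. The group means were 3.31 ± 0.244 and 0.128 ± 0.0474 FPKM (SD, n = 3 each), a 25.9-fold ratio. E2F8 had a log2 fold change of -3.92 (SE 0.26, limma adjusted p = 3.7e-06, Bonferroni-adjusted p = 0.00383). At the stricter thresholds the call on E2F8 was kept without butyrate culture 3 (Bonferroni-adjusted p = 0.0448) and was lost without any one of the other 5 cultures (Bonferroni-adjusted p from 0.0909 to 0.197), while its log2 fold change stayed between -4.08 and -3.78 over these 6 fits.

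The log2 ratio of E2F8 to E2F7 was 1.71, 2.02 and 1.88 in control and -0.72, -1.09 and -0.11 after butyrate. It was above 0 in every control culture and below 0 in every butyrate culture, a difference of -2.51 (exact two-sided permutation p = 0.1), or of -1.38 with a pseudocount of 1 FPKM. E2F8 transcripts were therefore the more abundant of the pair per length in control and the less abundant after butyrate, where the deposited lower bound of E2F8 was 0.

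The 6 member E2Fs summed to 41.9 ± 1.93 FPKM in control and 19.45 ± 1.26 FPKM after butyrate (SD, n = 3 each). E2F4 held 72.4% of that sum in control and 85.3% after butyrate. The activators E2F1 to E2F3 held 18.55%, 14.7% and 19.8% in the control cultures and 12.55%, 15.7% and 9.97% in the butyrate cultures. These groups overlapped, with a difference of -4.95 percentage points (exact two-sided permutation p = 0.2). The atypical E2Fs held 9.90% ± 0.670 and 1.96% ± 0.152 (SD, n = 3 each), a difference of -7.94 percentage points without overlap (exact permutation p = 0.1). Over the 7 within-culture ratios and shares that were tested, Benjamini-Hochberg adjustment gave 0.14 for the 5 with a p of 0.1, 0.233 for the activator share and 0.8 for RBL2 to RB1, so none passed 0.05, which a design of this size cannot reach.

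**Figure D3:**
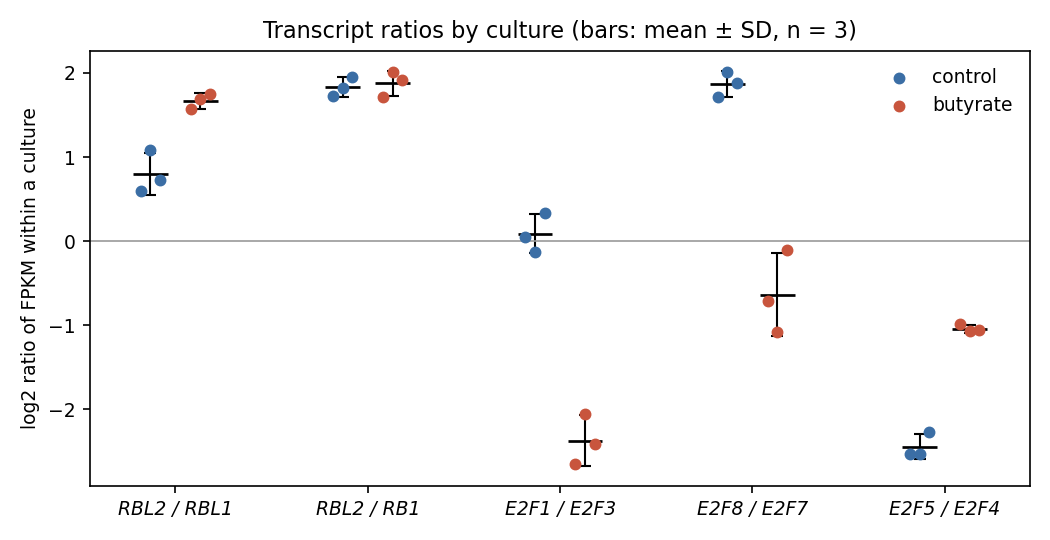
Within-culture log2 ratios of pairs of members, and of E2F5 to E2F4, with 1 point per culture, 3 control and 3 butyrate, and a line with a bar at the mean ± SD of each group. E2F1 to E2F3 and E2F8 to E2F7 differed by -2.46 and -2.51, E2F5 to E2F4 by 1.40, and RBL2 to RB1 by 0.04 with overlapping groups.

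MYBL2 showed the largest change of the members and stood among the most reduced genes of the table. It lies on chromosome 13 from 72939569 to 72966160, and its level was 64.4, 67.0 and 77.9 FPKM in control and 2.04, 1.51 and 1.71 FPKM after butyrate. The deposited 95% bounds lay far apart between the groups, and the means were 69.7 ± 7.16 and 1.75 ± 0.269 FPKM (SD, n = 3 each), a 39.8-fold ratio. MYBL2 had a log2 fold change of -5.24 (SE 0.13, limma adjusted p = 3.2e-08, Bonferroni-adjusted p = 9.3e-07), and 0.101% of tested genes had a lower one. It stayed between -5.40 and -4.68 in all alternatives that kept every culture and between -5.35 and -5.15 with any culture left out.

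Of the 8 genes for the MuvB core and for MYBL2's relatives and partner, 6 fell and LIN52 and MYB did not pass the test. This is 75% lower and 0% higher, beside 25.9% and 32.5% of all tested genes. LIN9, a core subunit that contacts MYBL2, went from 3.46, 1.89 and 4.14 FPKM to 0.241, 0.402 and 0.319 FPKM, with a log2 fold change of -2.91 (SE 0.33, limma adjusted p = 8.5e-05). LIN54, which binds the DNA element of the complex, fell from 7.57 ± 1.49 to 2.08 ± 0.492 FPKM (SD, n = 3 each), with a log2 fold change of -1.82. The core subunits LIN37 (-0.34) and RBBP4 (-0.19) fell by small amounts, and LIN52, whose phosphorylation favours the DREAM form, was at -0.22 with overlapping groups (adjusted p = 0.226).

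FOXM1, which joins MYBL2 and MuvB on promoters of the G2 and M phases, was at 2.46, 3.24 and 3.45 FPKM in control. It was listed at 0 in butyrate culture 1 and was at 0.126 and 0.0966 FPKM in butyrate cultures 2 and 3, with a fitted log2 fold change of -4.25 (SE 0.37, limma adjusted p = 1.7e-05) that depends on the pseudocount (-1.91 with 1 FPKM). Among the MYB genes, MYBL1 fell from 6.33 ± 0.799 to 1.17 ± 0.151 FPKM (SD, n = 3 each; log2 fold change -2.33), and MYB itself was low and overlapping, at 0.183 and 0.153 FPKM.

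**Figure D4:**
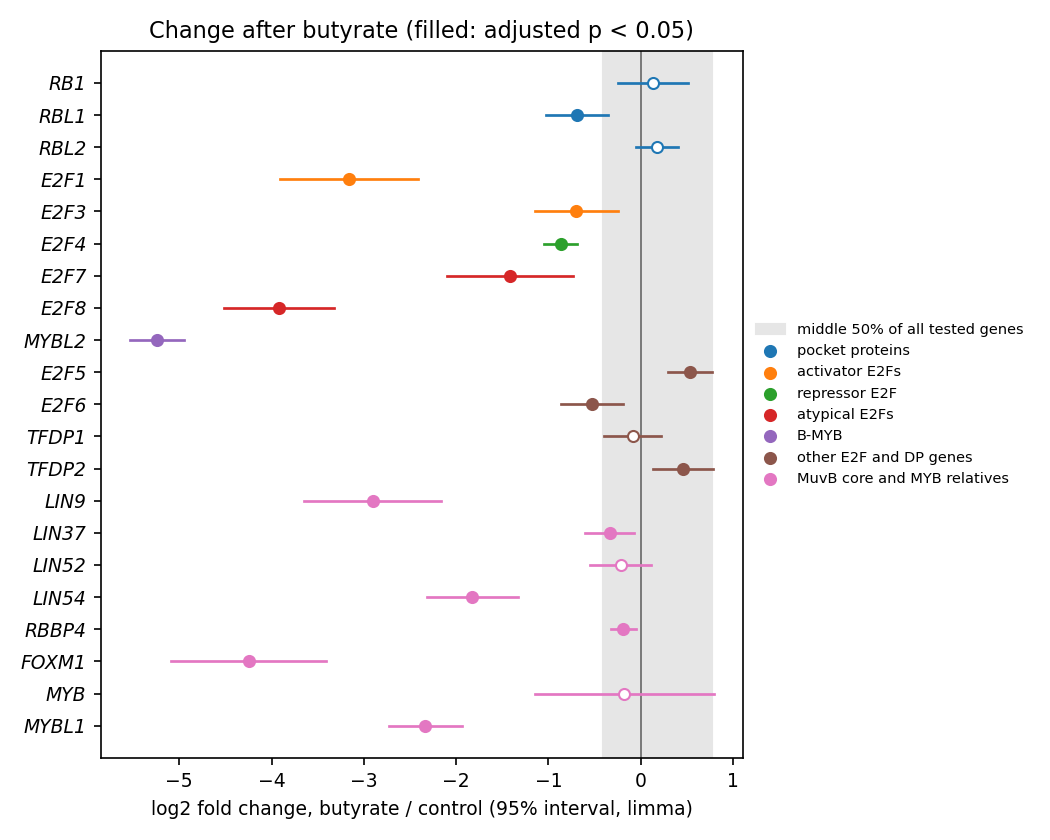
Log2 fold change of butyrate against control with its 95% interval (limma) for the 9 tested members, the other E2F and DP genes and the MuvB and MYB genes, with filled points at an adjusted p under 0.05 and the middle 50% of all tested genes shaded from -0.41 to 0.77. MYBL2, FOXM1, E2F8, E2F1 and LIN9 lie far to the left of the shaded band, and RB1 and RBL2 lie within it.

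Upstream of RB stand the cyclins and kinases that phosphorylate the pocket proteins, and the inhibitors of those kinases. Of 16 such genes 8 fell, 6 rose and 2 (CCND3 and CDK6) did not pass the test, which is 50% lower and 37.5% higher beside 25.9% and 32.5% of all tested genes, with a median log2 fold change of -0.21. The largest changes were those of CDKN1C, the inhibitor p57, which rose from 6.40 ± 1.35 to 32.5 ± 4.14 FPKM (log2 fold change 2.34, limma adjusted p = 3.6e-06), of CDKN2C, the inhibitor p18, which fell from 18.6 ± 0.605 to 5.33 ± 0.673 FPKM (-1.79), and of CDC25A, a phosphatase that activates CDK2, which fell from 8.55 ± 1.28 to 2.69 ± 0.748 FPKM (-1.66; SD, n = 3 each). Further genes of the list were named after their values were seen. CDKN2B, the inhibitor p15, rose from 24.8 to 78.1 FPKM (1.65), and CCND1, cyclin D1, fell from 774.8 to 315.9 FPKM (-1.29). The kinase of CCND1, CDK4, fell from 84.8 to 55.2 FPKM (-0.62), and CCND2, cyclin D2, fell too (-0.54). CCNE1, cyclin E1, rose from 7.32 to 9.87 FPKM (0.43), but CCNE2, cyclin E2, fell from 7.44 to 3.91 FPKM (-0.90), and CDK2 fell (-0.92). The kinase inhibitors did not all move one way, since CDKN1A (0.43), CDKN2A (0.57) and CDKN2D (0.82) rose as well, while CDKN1B fell (-0.44).

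Of the 11 corepressors that RB and its relatives are known to recruit, 3 fell, 2 rose and 6 did not pass the test, with a median log2 fold change of -0.01. These shares, 27.3% lower and 18.2% higher, stand beside 25.9% and 32.5% of all tested genes, so the falls were near the background. The 2 that rose were SMARCA2, the BRM ATPase (0.40), and SIN3A (0.35), both named after their values were seen. SUV39H1, a histone H3 lysine methyltransferase, fell from 4.40 ± 0.289 to 0.269 ± 0.0779 FPKM (log2 fold change -3.62, limma adjusted p = 3.0e-06). RBBP7, a histone-binding subunit of deacetylase complexes, fell from 392.6 ± 12.9 to 174.2 ± 7.24 FPKM (-1.17). SMARCA4, the BRG1 ATPase, fell from 37.6 ± 1.56 to 20.1 ± 1.03 FPKM (-0.90; SD, n = 3 each).

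The genes that E2Fs and MYBL2 are known to regulate fell throughout both lists. Both lists were chosen with earlier results of these data known, so their counts are no independent support. All 40 listed E2F targets of the G1/S transition fell, 24 of them also at the stricter thresholds. Over all tested genes 25.9% were called lower, and 1.51% at the stricter thresholds. The log2 fold changes of the 40 targets ran from -4.79 to -0.62 around a median of -2.81. RRM2, a subunit of ribonucleotide reductase, fell from 145.3 ± 6.16 to 5.20 ± 0.899 FPKM (log2 fold change -4.79), ORC1, of the origin recognition complex, from 4.80 ± 0.669 to 0.193 ± 0.0749 FPKM (-4.09), and UHRF1, which directs maintenance methylation of DNA, from 17.1 ± 0.815 to 0.946 ± 0.163 FPKM (-4.05; SD, n = 3 each).

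All 35 listed targets of MYBL2 and MuvB in G2/M fell, 32 at the stricter thresholds, beside 25.9% and 1.51% of all tested genes. The log2 fold changes of the 35 targets ran from -5.95 to -1.11 around a median of -4.10. CCNB2, a mitotic cyclin, fell from 37.2 ± 1.35 to 0.582 ± 0.430 FPKM (-5.95), CDC20, the activator of the anaphase-promoting complex, from 77.8 ± 3.02 to 1.24 ± 0.274 FPKM (-5.88), and CCNA2, cyclin A, from 35.6 ± 1.77 to 0.589 ± 0.279 FPKM (-5.76; SD, n = 3 each). With a log2 fold change of -5.24, MYBL2 lay inside the range of the G2/M list and below that of the G1/S list, E2F8, E2F1 and E2F7 lay inside both ranges, and RBL1, E2F3 and E2F4 lay above the G2/M range and near the upper end of the G1/S range.

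**Figure D5:**
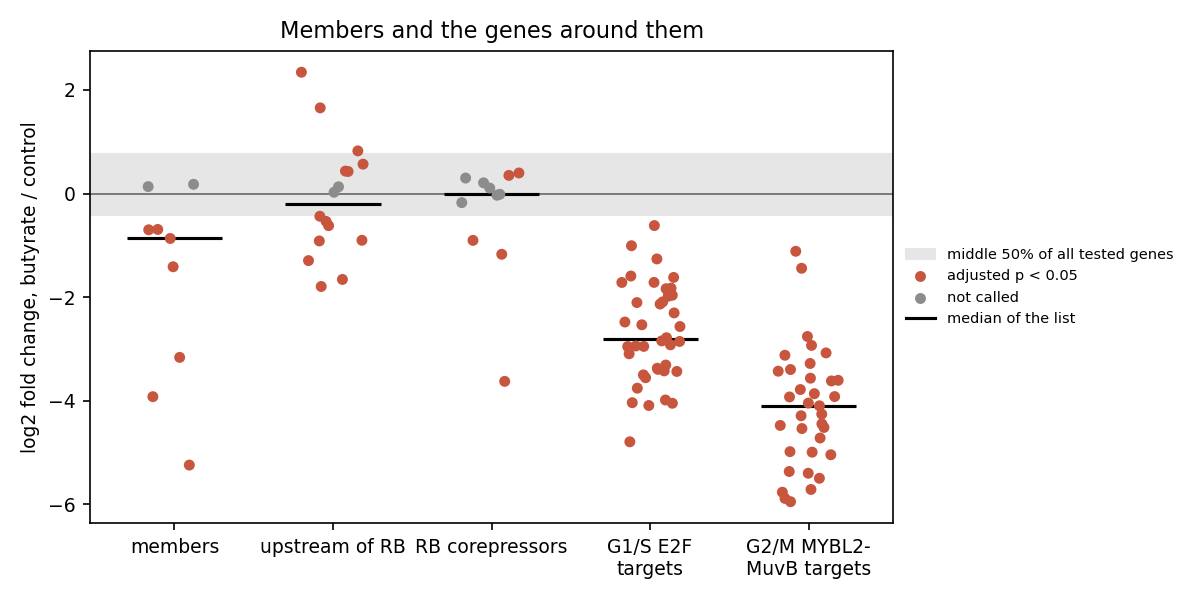
Log2 fold change of butyrate against control for the 9 tested members and for genes upstream of RB (16), RB corepressors (11), G1/S E2F targets (40) and G2/M MYBL2-MuvB targets (35), with a black line at each median and the middle 50% of all tested genes shaded. The medians are -0.87, -0.21, -0.01, -2.81 and -4.10 in that order, and red points passed an adjusted p of 0.05.

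Genes with the most similar pattern were sought as those whose log2(FPKM + 0.1) values, centred over the 6 cultures, had the smallest root mean square difference from those of a member. With 3 cultures a group, such likeness mostly follows the size of the difference between the groups. For MYBL2 they were PLK1 (0.134) and CCNB1 (0.141), for E2F8 KIF4A (0.0650) and MCM3 (0.0815), for E2F7 ANAPC15 (0.0848) and CCDC149 (0.107), and for E2F1 ATP4B (0.243) and CXCL11 (0.248). E2F4 was nearest to ID3 (0.0374) and MAGED2 (0.0379), and E2F3 to NUP43 (0.0990) and ALG1 (0.0996). Among the pocket proteins, RBL1 was nearest to SLC25A26 (0.0392) and HMGA1 (0.0507), RBL2 to RNF123 (0.0264) and AKIRIN2 (0.0328), and RB1 to SLC6A8 (0.0332) and BAZ2A (0.0449).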

How the data were processed

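RNA-seq libraries (TruSeq, paired ends) of 6 cultures were quantified by the authors, who deposited 1 table of FPKM per culture with 95% bounds. Their processing notes name Trim Galore 0.4.1, STAR, Cufflinks and the UMD3.1 build. Locus starts in the tables were taken to count from 0 and were raised by 1: of 301 genes placed in both these and the study's gene tables, 63 had the same start after this step and 2 without it. Chromosomes were named by matching symbols to RefSeq genes (ARS-UCD2.0, names only). Groups came from the labels. Because FPKM are not counts, log2(FPKM + 0.1) of genes with a mean of at least 0.1 FPKM was tested with limma 3.58.1 (trend, R 4.3.3). There were 15813 such genes, after 2 genes with a failed estimate in some culture had been removed. P-values were adjusted over all genes tested. The fit was also run on simulated data in which far fewer genes changed than here, so that run does not vouch for these calls. Within-culture ratios and shares were compared by exact two-sided permutation tests (scipy 1.17.1).

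The members and gene lists were chosen with earlier results of these data known. Named genes were all members, every gene of the lists of at most 8 genes, the 3 called genes with the largest absolute log2 fold change in longer lists, and the 2 genes nearest to each member. Other genes of the longer lists, and markers, were named after their values were seen. Ratios of E2F1 to E2F3, E2F8 to E2F7 and E2F5 to E2F4, and the filter on either group, were added after seeing the data. Alternatives were pseudocounts of 0.01 and 1, other filters, scalings and adjustments, a fit without the trend, a replicate block, and leaving out each culture. The planned search of promoters for motifs was not run, because no promoter sequence was used here. The precision of a level is limited by 3 cultures a group.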

Additional observations from a re-analysis of the deposited data

How the results depend on the processing

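Of 404 values recomputed under an alternative, 376 kept their direction and their side of the threshold or stayed near the main value, 10 counts moved, 12 lost and 1 gained a call, and 5 changed sign. The 376 overstate robustness, because part of them was fixed in advance. Ratios and shares could not cross the threshold in a design of this size, and the replicate block left their differences unchanged. For single genes, other filters, the fit without the trend and the replicate block kept the log2 fold change, so only the call could alter. Values that kept a call could still shrink, as those of E2F1, E2F7 and E2F8 did with a pseudocount of 1. The count of members that fell (7) became 3 with Bonferroni adjustment and was 6 to 7 with a culture left out, and 1 member, RBL2, was called higher after rescaling to TPM. At the stricter thresholds the count of 2 became 1 with a pseudocount of 1, without a filter and with the replicate block, and was 1 to 2 with a culture left out; MYBL2 was called throughout. The RBL2 to RB1 log2 ratio ran from -0.0206 to 0.126 with a culture left out, RB1 had a log2 fold change of -0.18 after quantile normalization, and that of TFDP1 was 0.0357 after rescaling to TPM and ran from -0.190 to 0.0681 with a culture left out, above 0 only without control culture 1. The cause of these changes was not tested. The median of all genes moved by 0.12 with TPM and by -0.15 with quantile normalization. Over all genes, 238 lower and 389 higher calls at the stricter thresholds became 50 and 47 without a filter, 141 and 213 without the trend, 183 and 226 with the replicate block, and 122 to 159 and 100 to 232 with a culture left out.

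Cultures shared replicate numbers but not a stated origin. The deviations of same-numbered cultures had correlations of 0.0228, -0.00431 and 0.00177, and 2 of 6 cultures correlated best with their own number, so the numbers were not taken as pairs. With the replicate block 7 members fell by adjusted p and 1 at the stricter thresholds.

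All cultures came from 1 calf. The tables hold no counts, so the depth behind levels near or under 0.1 FPKM, as for E2F2 and E2F8 after butyrate, is unknown.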
